A study of Mus musculus with 23 samples.

Results

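The nucleus accumbens of female mice was profiled on 11 whole-transcript microarrays, 5 from control females and 6 from females labelled as Nr1d1 knockdown. These are the arrays whose labels give a female mouse and one of those groups, and they make up 11 of the 23 arrays of the series, the other 12 being 6 control and 6 knockdown males. All mice were C57BL/6 (C57BL/6J in the text on growth). Every mouse received an adeno-associated virus (AAV) in the nucleus accumbens: controls a virus with a scrambled short hairpin RNA, knockdown mice a virus with a short hairpin RNA against Nr1d1. Both groups therefore carry a virus and a hairpin, and no uninjected group is among the samples. The region was punched out about 5 weeks after the injection, at an age of about 15 weeks, with 1 array per mouse. The punch holds infected and uninfected cells together, and no source used here gives the share of infected cells, the promoter of the hairpin or the hour of collection. The treatment text of all samples, males included, also speaks of litters of 11 pups and of tissue taken on postpartum day 7, so the reproductive state of these females was not used. The comparison asks which transcripts of this reward region differ in females after a hairpin against a clock gene.

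Nr1d1 encodes REV-ERBα, a nuclear receptor that binds heme and represses transcription by bringing the NCoR and HDAC3 corepressor complex to its target genes. In the circadian clock, BMAL1 (gene Arntl) with CLOCK or NPAS2 activates Nr1d1, Per, Cry and Dbp, and REV-ERBα in turn represses Arntl, Clock and Nfil3, competing with the activating ROR receptors for the same DNA element. The nucleus accumbens, the ventral part of the striatum, consists mostly of medium spiny neurons that receive dopamine and serves motivation and reward.

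The values are log2 intensities, so a difference of 1 is a doubling and all differences below are the mean of the females labelled knockdown minus the mean of the controls. Array medians lay between 6.11 and 6.17. Of 10 markers of medium spiny neurons, 7 had a probe set of their own (the part of the array that reads 1 transcript), and all of these lay between 9.96 and 12.93 on the 11 arrays, above the highest upper quartile of 7.8. Xist, the X-inactivation RNA, was at 11.40 or above on every female array and at 4.12 or below on every male array. Knockdown replicates 3 and 4 stood apart: on the first principal component, with 17% of the variance, they lay at 31.9 and −33.6, while the other 9 arrays lay between −10.1 and 9.12. On the second component, with 14.4% of the variance, knockdown replicate 5 lay highest at 25.5, followed by knockdown replicate 2 at 19.6. Knockdown replicate 3 lay lowest there, at −17.0. The labels call the samples biological replicates, and all p-values rest on the spread between mice. In limma, the linear model used here, that spread is pooled over the 4 groups, males included, so SE and p-values are not set by the females alone.

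Nr1d1, the target of the hairpin, stood at 10.05, 10.06, 10.09, 9.93 and 10.09 in the 5 control females. In the 6 females labelled knockdown it stood at 9.97, 10.15, 9.94, 9.73, 10.17 and 9.99. The groups overlapped, and knockdown replicates 2 and 5 lay above every control. The difference was −0.05 (SE 0.09), with 4 of 6 females labelled knockdown below the control mean, and neither the exact permutation test (p = 0.563, two-sided, with 0.00216 the smallest value that 462 assignments allow) nor limma (adjusted p = 0.963) separated the groups. In percent the difference is −3.56%, and the lower end of its 95% interval is −15.2%, so a mean loss of Nr1d1 signal beyond that size lies outside the interval. Replicate 4 carried the difference: without it the mean difference was 0. The array holds 1 probe set with this name, and which part of the transcript it reads was not analysed here. Thra, the thyroid hormone receptor gene that overlaps the end of Nr1d1 on the opposite strand, differed by −0.01 (SE 0.04). Because no loss of the targeted RNA was detected, the 6 mice are called females labelled knockdown throughout.

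Across the array, 0 of 41345 probe sets (0%) passed an adjusted p of 0.05 in limma, and 0 passed 0.10. Of these probe sets 1395 had the same values as another on every array, and each was tested and counted. The lowest adjusted p was 0.251, for an unnamed probe set. At an unadjusted p under 0.05 stood 2423 probe sets (5.86%), of which 1386 were higher. With the arrays centred on the median of the named genes the split was 974 higher of 2459, and with quantile normalization 1021 of 1992. Among 22180 named genes, 1248 (5.63%) had an unadjusted p under 0.05, with 641 higher (2.89%) and 607 lower (2.74%). In 139 genes (0.627%) the groups did not overlap at all, 67 with every female labelled knockdown above every control (0.302%) and 72 below (0.325%). For the median probe set the 95% interval, which is not adjusted, was the estimate plus or minus 0.17. Differences smaller than that were thus mostly not resolvable with 5 and 6 mice, even before adjustment. The adjusted threshold asks for more: on simulated data it recovered 7.46% of changes of 0.25.

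The direction of the differences followed how bright a gene was. Named genes were divided into 5 classes of like size by their mean level on the male arrays, which do not enter the female difference, from class 1 (dimmest) to class 5 (brightest). In class 1 66.3% of 4437 genes were higher in the females labelled knockdown and in class 2 67.3%, against 50.2% of all named genes, while 49.8% of all were lower. In classes 4 and 5 the shares higher were 32.6% and 32.1%, so most bright genes were lower. Median differences were small, at 0.03, 0.04, 0.01, −0.03 and −0.03 from class 1 to class 5, while those in males lay between −0.005 and 0.008. Genes with an unadjusted p under 0.05 followed the same order: 260 higher and 38 lower in class 2, 45 higher and 223 lower in class 5.

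**Figure D1:**
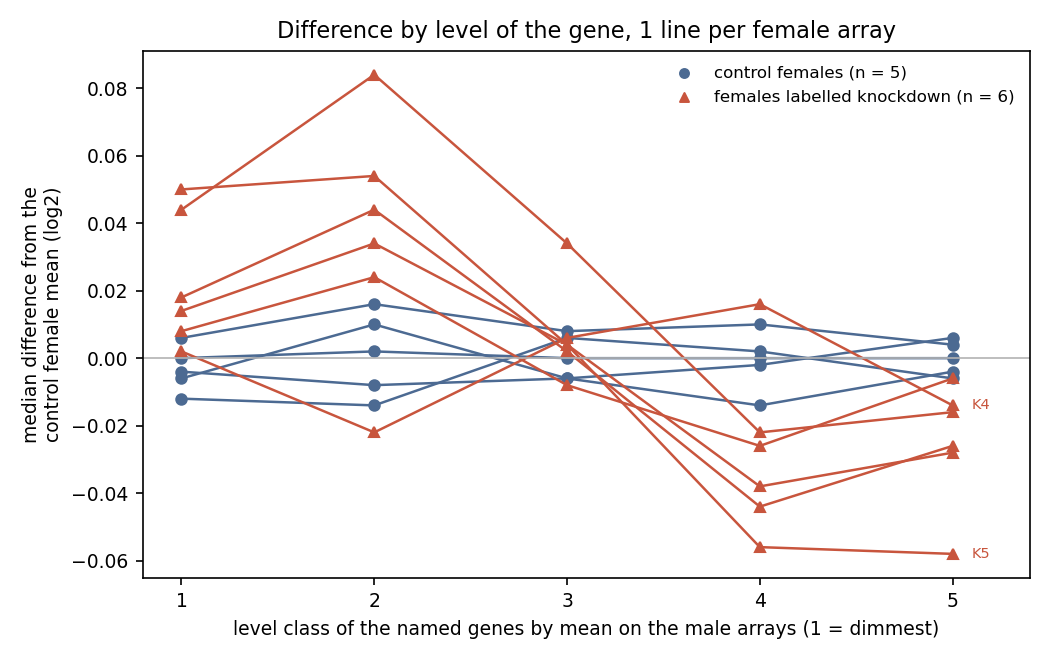
Median log2 difference of the genes of each level class from their control female mean (y axis), against the class of named genes by mean level on the male arrays (x axis, 1 = dimmest), with 1 line per female array: blue circles for 5 controls, red triangles for 6 females labelled knockdown. The controls stay within 0.016 of 0 in every class, but each control enters the control mean, which draws its line toward 0. The red line that falls most from class 1 to class 5, K5 (knockdown replicate 5), runs from 0.05 in class 1 to −0.06 in class 5. K4 (knockdown replicate 4) has no such slope.

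The plot of medians by level shows the pattern mouse by mouse. Knockdown replicate 5 had medians of 0.050, 0.054, 0.004, −0.056 and −0.058 from class 1 to class 5, and replicates 1, 2, 3 and 6 were also higher in classes 1 and 2 and lower in classes 4 and 5. Replicate 4, at 0.002, −0.022, 0.006, 0.016 and −0.014, did not share it. The distributions of all intensities differed in the same way, with an interquartile range of 2.99 to 3.03 in the controls and of 2.95, 2.94, 2.95, 3.02, 2.92 and 2.97 in knockdown replicates 1 to 6. Quantile normalization within the female arrays, which gives all arrays 1 common distribution, left medians of 0.01, 0.01, −0.01, −0.01 and −0.004. Whether RNA amount, labelling or scanning differed between the groups was not tested. Several gene groups below are therefore also given after quantile normalization.

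Genes of the clock's repressor loop were described next. Among the REV-ERB and ROR receptors, Nr1d2, which encodes REV-ERBβ, differed by −0.05 (SE 0.07). Rora, which activates through the element that REV-ERB occupies, differed by −0.09 (SE 0.06, below the control mean in 6 of 6), and Rorb by 0.13 (SE 0.09). Among the activators, Arntl stood at 9.54, 9.42, 9.58, 9.47 and 9.56 in controls and at 9.56, 9.51, 9.43, 9.77, 9.66 and 9.50 in the females labelled knockdown. The highest and the second highest values of Arntl came from knockdown replicates 4 and 5, but its groups overlapped and the difference was 0.06 (SE 0.07). Clock differed by 0.04 (SE 0.04), Arntl2 by −0.06 (SE 0.06) and Npas2, the partner of BMAL1 in forebrain, by 0.13 (SE 0.09, above the control mean in 5 of 6).

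Repressors of the other arm were near their control levels. Per1 stood at 9.78, 9.70, 9.92, 9.81 and 9.68 in controls and at 9.81, 9.91, 9.87, 9.91, 9.91 and 9.93 in the females labelled knockdown. All 6 lay above the control mean, yet control replicate 3 lay among them, and the difference was 0.11 (SE 0.07, limma adjusted p = 0.885). Cry1 was also above its control mean in 6 of 6, by 0.08 (SE 0.06), a value led by replicate 4 at 8.01. Per3, Cry2, Bhlhe40 and Bhlhe41 differed by 0.02, −0.03, 0.02 and −0.02. Ciart, a repressor that binds BMAL1, differed by −0.11 (SE 0.08) in females and by 0.17 in males, with an unadjusted p of 0.022 for the difference between the sexes and no adjusted call. Per2 had no probe set of its own here.

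**Figure D2:**
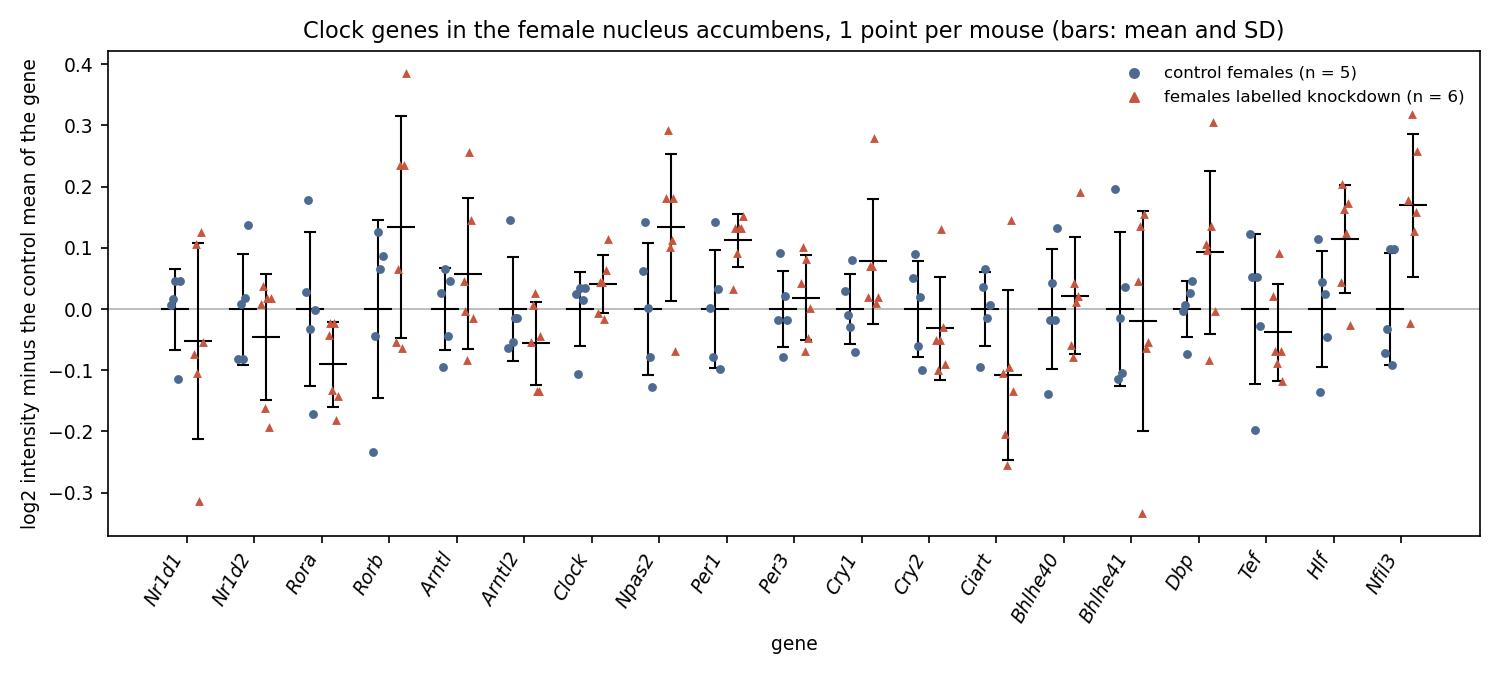
Log2 intensity of 19 clock genes minus the control mean of each gene (y axis), by gene (x axis), with 1 point per mouse: blue circles for 5 control females, red triangles for 6 females labelled knockdown, bars for mean and SD. Nr1d1 overlaps between the groups, while Per1, Hlf and Nfil3 sit mostly above their control means, with differences of 0.11, 0.11 and 0.17.

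Clock output genes differed by member. Nfil3, a repressor of D-box genes that REV-ERBα itself represses, stood at 6.78, 6.82, 6.95, 6.76 and 6.95 in controls and at 7.03, 6.83, 7.17, 6.98, 7.01 and 7.11 in the females labelled knockdown. Replicate 2 lay among the controls and the other 5 lay above all of them. Its difference was 0.17 (SE 0.06, unadjusted p = 0.014, limma adjusted p = 0.839) and ranged from 0.14 to 0.21 when each mouse in turn was left out. Hlf, a D-box activator, stood at 9.42, 9.17, 9.35, 9.33 and 9.26 in controls against 9.35, 9.51, 9.47, 9.43, 9.48 and 9.28, a difference of 0.11 (SE 0.05, unadjusted p = 0.047, limma adjusted p = 0.850). The D-box activators Dbp and Tef differed by 0.09 (SE 0.09) and −0.04 (SE 0.05), and Wee1 and Nampt, a mitotic kinase and an enzyme of NAD salvage, by −0.01 and −0.04. In males Nfil3 and Hlf differed by −0.03 and −0.01. Of the 6 output genes 2 had an unadjusted p under 0.05, both higher, against the 2.89% of all named genes. Nfil3 kept an unadjusted p under 0.05 in all 11 fits that left out 1 mouse, and Hlf lost it without control replicate 2, 4 or 5 or knockdown replicate 2, 3, 4 or 5.

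Genes that REV-ERB is known to repress would carry a functional readout of its loss. Of 13 such genes 9 were higher and 2, Nfil3 and Ccl2, had an unadjusted p under 0.05 (15.4%, against 2.89%), and 0 passed the adjusted threshold. Their median difference was 0.05, against 0.0003 for all named genes, and 0.06 with 8 higher and 1 at an unadjusted p under 0.05 after quantile normalization. Promoter sequences show the element at which REV-ERBα acts, the element TAGGTCA, printed in capitals on either strand (TGACCTA is its reverse). They come from the RefSeq table of GRCm38.p6, whose windows run from 250 bases before to 50 bases after an annotated start. All 3 target genes whose window held the letters are shown, out of 11 targets with an entry. Of 32851 promoter windows 856 (2.61%) held them. That share counts windows, while a target was counted when any of its windows held the letters, so the 2 are not alike. A match describes letters and is no evidence of binding.
Nfil3, chr13:52981040-52981161, minus strand: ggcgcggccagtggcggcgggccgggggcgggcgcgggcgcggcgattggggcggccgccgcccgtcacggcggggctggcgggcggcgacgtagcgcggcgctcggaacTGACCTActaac
Fabp7, chr10:57784673-57784812, plus strand: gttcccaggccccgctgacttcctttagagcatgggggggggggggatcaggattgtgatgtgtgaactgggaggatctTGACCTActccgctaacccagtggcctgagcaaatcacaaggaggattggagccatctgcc
Arntl, chr7:113207529-113207558, plus strand: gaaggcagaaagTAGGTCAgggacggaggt

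The 3 genes with the letters differed by 0.17 (Nfil3), 0.15 (Fabp7) and 0.06 (Arntl). Fabp7, a fatty acid binding protein of astrocytes whose RNA cycles in brain, stood at 10.19, 10.22, 10.04, 10.10 and 10.07 in controls and at 10.16, 10.07, 10.16, 10.73, 10.40 and 10.11. Replicates 4 and 5 lay above all controls and the other 4 among them, and without one mouse at a time the difference ranged from 0.06 to 0.19. Ccl2, a chemokine that attracts monocytes, stood at 5.68, 5.92, 5.74, 5.81 and 5.77 against 5.87, 5.91, 5.84, 6.01, 5.94 and 6.03, a difference of 0.15 (SE 0.07, unadjusted p = 0.049). All 6 females labelled knockdown lay above the control mean of Ccl2, but only 3 lay above control replicate 2, and in males the same gene differed by −0.16. Ccl2 had an unadjusted p under 0.05 in 3 of the 11 fits that left out 1 mouse: those without control replicate 2, knockdown replicate 1 or knockdown replicate 3. In the other 8 Nfil3 was the only target at that threshold. E2f1 differed by 0.01, Il6 by 0.05, Th (the enzyme that limits dopamine synthesis) by −0.005, Cx3cr1 by −0.03, Lpl by −0.05 and Ppargc1a by −0.07, and Clock, Npas2 and Cry1, given above, belong to this list too.

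Among the corepressors that REV-ERBα recruits, Hdac3 stood lower. This histone deacetylase stood at 9.89, 9.79, 9.83, 9.87 and 9.82 in controls and at 9.71, 9.69, 9.73, 9.79, 9.62 and 9.68, so every female labelled knockdown was at or below the lowest control. The difference was −0.14 (SE 0.05, unadjusted p = 0.010, limma adjusted p = 0.839), and −0.11 after quantile normalization. It was 1 of 4 measured corepressor genes with an unadjusted p under 0.05, against 2.74% of named genes lower. The median member of this list is in level class 5, where 223 of 4436 genes stood lower at that threshold. Tbl1xr1, another subunit of that complex, differed by −0.08 (SE 0.06).

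Genes of energy metabolism formed the group with the most members at an unadjusted p under 0.05. Of 22 measured subunits of the mitochondrial respiratory chain 20 were lower, 6 of them with an unadjusted p under 0.05 (27.3%, against 2.74%), and 0 passed the adjusted threshold. The list was bright, with its median member in level class 5, where 223 of 4436 genes stood lower at that threshold and only 32.1% were higher. Its median difference was −0.07. Without 1 mouse at a time the count at that threshold ran from 3, without control replicate 4, to 8. After quantile normalization 18 of 22 were lower, 4 with an unadjusted p under 0.05, with a median of −0.05. Cox5a, a subunit of cytochrome c oxidase, stood at 9.63, 9.79, 9.63, 9.72 and 9.73 in controls and at 9.58, 9.37, 9.57, 9.56, 9.53 and 9.60. Every female labelled knockdown lay below every control, and the difference was −0.17 (SE 0.05, limma adjusted p = 0.839), from −0.18 to −0.13 without single mice. Ndufb8, a complex I subunit, stood at 7.47, 7.75, 7.52, 7.61 and 7.58 against 7.35, 7.32, 7.24, 7.48, 7.24 and 7.46, a difference of −0.24 (SE 0.06) in which replicate 4 alone reached the lowest control. Other members at this level were Ndufs4 (−0.15, SE 0.05), Cox4i1 (−0.17, SE 0.07), Ndufa2 (−0.13, SE 0.06) and Cox5b (−0.11, SE 0.05).

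Enzymes of glycolysis were lower too. Of 12 measured genes 11 were lower and 4 had an unadjusted p under 0.05 (33.3%, against 2.74%), with a median difference of −0.05. After quantile normalization 11 were still lower, but with 2 at that threshold and a median of −0.04. The count was also 2 without control replicate 1, 3 or 4 or knockdown replicate 2 or 5, each left out in turn. This list too has its median member in level class 5, where 223 of 4436 genes stood lower at an unadjusted p under 0.05. Ldhb, the lactate dehydrogenase subunit of oxidative cells, stood at 10.18, 10.23, 10.07, 10.18 and 10.14 in controls and between 9.93 and 10.08 in the females labelled knockdown. Only knockdown replicates 1 and 4, both at 10.08, reached into the controls, and the difference was −0.16 (SE 0.04, unadjusted p = 0.00089, limma adjusted p = 0.839). Pgam1, a mutase of glycolysis, differed by −0.19 (SE 0.06), with replicates 1 and 6 at 9.97 and 9.96 among the controls, and Pgk1 and Pfkm both by −0.12 (SE 0.06). The male arrays did not show the direction: there 15 of 22 respiratory chain genes and 10 of 12 glycolysis genes were higher, with medians of 0.03 and 0.04. The difference between the sexes had an unadjusted p under 0.05 for 6 of 22 and 1 of 12 of them, against 5.18% of all named genes, and 0 passed the adjusted threshold. Both lists are bright, and all genes of level class 5 had a median difference of −0.03 in females and 0.008 in males. The share among bright genes alone, or after quantile normalization, is not given here.

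**Figure D3:**
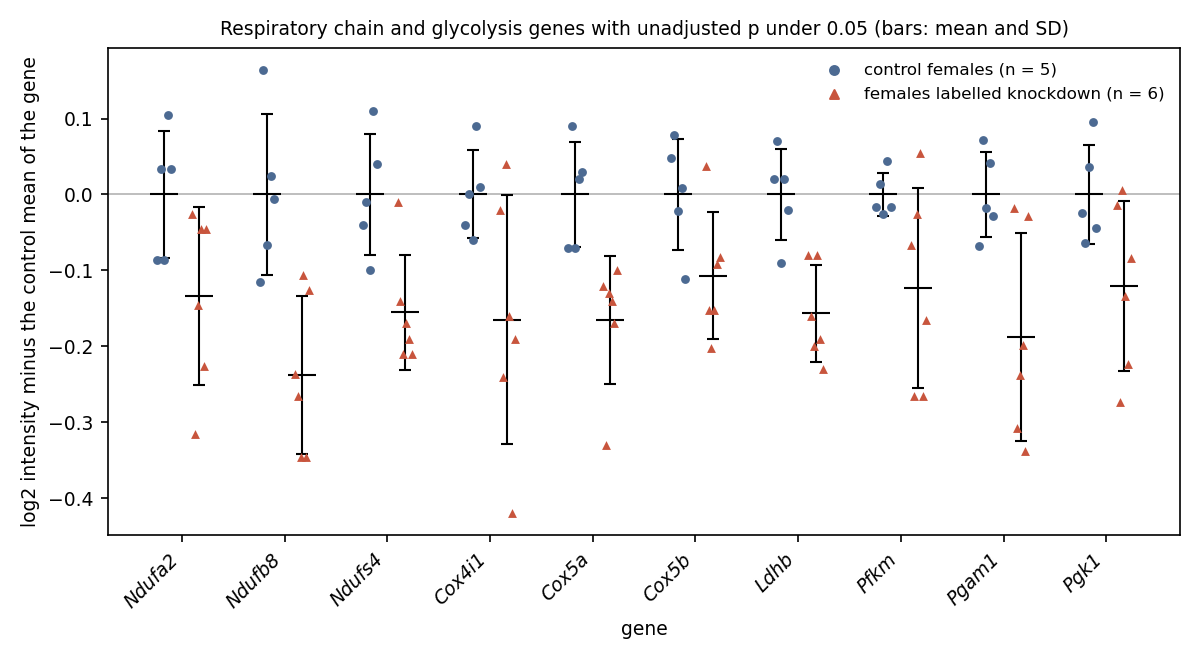
Log2 intensity of 10 respiratory chain and glycolysis genes minus the control mean of each gene (y axis), by gene (x axis), with 1 point per mouse: blue circles for 5 control females, red triangles for 6 females labelled knockdown, bars for mean and SD. Only in Cox5a do all red points lie below all blue points, and the differences of the 10 genes run from −0.24 (Ndufb8) to −0.11 (Cox5b).

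Single genes with the smallest p-values, 12 in each direction, were named by rule. Smim26, which encodes a small membrane protein, came first of all named genes, at 6.81, 6.97, 6.93, 6.90 and 7.00 in controls and 6.74, 6.61, 6.64, 6.82, 6.50 and 6.58. Replicate 4 alone reached the controls, and the difference was −0.27 (SE 0.06, unadjusted p = 7.1e-05, limma adjusted p = 0.733). Prpf19, a core factor of the spliceosome, stood at 9.49, 9.61, 9.49, 9.62 and 9.56 against 9.41, 9.33, 9.40, 9.40, 9.35 and 9.36, without overlap, a difference of −0.18 (SE 0.04). Prpf6, of the spliceosome's U5 particle, differed by −0.17 (SE 0.05). Mcee, an enzyme of propionate breakdown, and Gpr151, an orphan receptor known from the habenula, were also without overlap at −0.21 (SE 0.05) and −0.27 (SE 0.07). The list further held Tinf2 of the telomere-protecting shelterin complex (−0.23), the histone chaperone partner Hirip3 (−0.32), Tipin of the replication fork (−0.35), the COP9 signalosome subunit Cops5 (−0.20), the farnesyltransferase subunit Fnta (−0.21), Ndufb8 and Ldhb. All 12 were lower in every alternative run, including each mouse left out, and 0 passed the adjusted threshold. They were chosen by their small p in these same mice, so a kept sign was likely in advance and adds no support.

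The 12 genes at the head of the other direction lay in level classes 1 to 3. Zbtb42, a zinc finger repressor, stood at 5.86, 5.92, 5.98, 6.03 and 5.97 in controls and 6.37, 6.09, 6.13, 6.06, 6.31 and 6.23, without overlap, with a difference of 0.25 (SE 0.06, limma adjusted p = 0.733). Rpl22l1, a paralogue of a ribosomal protein, was the tightest, at 6.19 to 6.24 in controls and 6.35 to 6.50 in the females labelled knockdown, a difference of 0.18 (SE 0.05). Pyy, the gut peptide YY, and Sucnr1, the succinate receptor, differed by 0.24 (SE 0.06) and 0.25 (SE 0.07), both without overlap and at levels near 5 and 4.2 in the controls. Gata2, a transcription factor of blood and midbrain, differed by 0.30 (SE 0.08), with replicates 1 and 6 at 5.92 and 5.76 among the controls. The remaining 7 were Mageb4 (0.25), Gm17552 (0.39), Tssk1 (0.30), A430108G06Rik (0.19), Gapt (0.19), Fam186a (0.15) and Ccdc13 (0.21). Ccdc13 differed by 0.08 when all its probe sets were averaged. On the male arrays these 12 genes differed by −0.12 to 0.09.

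The 10 largest differences with an unadjusted p under 0.01 included 2 probe sets that carry miRNA gene names. Mir713 stood at 5.01, 4.47, 4.82, 4.66 and 4.98 in controls and 5.28, 5.23, 5.52, 5.14, 5.44 and 4.98, and replicate 6 alone lay among the controls. Mir3095 stood at 4.09 to 4.74 in controls, with replicate 2 lowest, against 5.41, 4.90, 4.81, 4.83, 5.19 and 4.71. Their differences were 0.48 (SE 0.15) and 0.44 (SE 0.13), the adjusted p of both was 0.839 in limma, and their levels are among the dimmest. Chosen after its values were seen was Mir132, an activity-regulated miRNA gene of neurons whose neighbour Mir212 shares its seed. Mir132 stood at 4.32, 4.63, 4.83, 4.76 and 4.66 against 4.82, 4.65, 4.65, 4.92, 4.89 and 4.96, a difference of 0.17 (SE 0.08), with 0.18 (SE 0.08) in males. Mir212 differed by 0.14 (SE 0.14) and 0.02 in males. The mature sequences from RefSeq (GRCm38.p6), have bases 2 to 8, the seed, in capitals. They are shown because miR-132-3p and miR-212-3p share a seed, while miR-713 and miR-3095-3p each have another.
mmu-miR-132-3p: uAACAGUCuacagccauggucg
mmu-miR-212-3p: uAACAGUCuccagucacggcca
mmu-miR-713: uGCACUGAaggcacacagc
mmu-miR-3095-3p: uGGACACUggagagagagcuuuu
Whether these probe sets read a mature miRNA or a longer precursor cannot be told from the values.

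Other genes among the 10 largest differences were Rbx1-ps at 0.46, a pseudogene whose signal cannot be told apart from related copies, Mpzl2 at −0.42, Cdc34, a ubiquitin-conjugating enzyme, at −0.37, Kcnab3, a subunit of potassium channels, at −0.34, and Pramel33 and Vmn2r109, of multigene families, at 0.36 and 0.34. Mpzl2 shows what carries such a value: controls stood at 5.25, 6.13, 5.00, 5.61 and 5.74, and the females labelled knockdown at or below 5.32. The spread lay in the controls, and control replicate 2 was the highest. Cdc34 was without overlap, at 6.81 to 7.23 in controls and 6.42 to 6.80 in the females labelled knockdown.

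Neurons of the region were described by their own lists. Shared genes of medium spiny neurons were higher for 9 of 15 with a median of 0.02, and genes of the direct and indirect pathways for 4 of 8 and 4 of 7 with medians of −0.02 and 0.02. Drd2, the dopamine receptor of the indirect pathway, differed by 0.08 (SE 0.11), Tac1, the substance P gene of the direct pathway, by −0.06 (SE 0.06), and Foxp1 and Syndig1l by 0.11 and 0.13. In these lists 0 members had an unadjusted p under 0.05. In bulk tissue fewer cells of a type and less RNA per cell cannot be told apart. Of 11 genes of dopamine signalling 3 were higher, and Slc6a3, the dopamine transporter, differed by −0.15 (SE 0.08, below the control mean in 6 of 6).

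Receptor genes differed by member. Gabra2, the α2 subunit of the GABA-A receptor, stood at 10.61, 10.38, 10.49, 10.55 and 10.50 in controls and 10.68, 10.86, 10.68, 10.59, 10.58 and 10.75. Control replicate 1 lay above 2 of the females labelled knockdown, and the difference was 0.18 (SE 0.07, unadjusted p = 0.015, limma adjusted p = 0.839). It was 1 of 14 GABA receptor genes at that threshold, against 2.89% higher, and only 6 of the 14 were higher, or 7 after quantile normalization. Without control replicate 2 its unadjusted p was 0.0507. Grin2b, the GluN2B subunit of the NMDA receptor, was without overlap, at 11.24, 11.24, 11.26, 11.24 and 11.19 against 11.34, 11.36, 11.39, 11.27, 11.27 and 11.38. Its difference was 0.10 (SE 0.05, unadjusted p = 0.075), opposite to the list, of which 14 of 21 were lower with a median of −0.05 (13 and −0.02 after quantile normalization). Kit, a receptor tyrosine kinase of interneurons, was without overlap in the other direction, at 8.30 to 8.43 in controls and 8.10 to 8.26, a difference of −0.14 (SE 0.07). Pvalb, of fast-spiking interneurons, differed by −0.20 (SE 0.12).

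Among receptors for hormones and social peptides 6 of 17 were higher, with a median of −0.05 that came to −0.01 without control replicate 4. Pgr, the progesterone receptor, stood at 6.58, 6.64, 6.61, 6.62 and 6.71 in controls and 6.54, 6.42, 6.41, 6.24, 6.63 and 6.60. All 6 females labelled knockdown lay below the control mean and replicates 5 and 6 reached the controls, with a difference of −0.16 (SE 0.07, unadjusted p = 0.036, limma adjusted p = 0.850). It lost that unadjusted threshold without control replicate 2 or 5 or knockdown replicate 2, 3 or 4. Gper1, a membrane estrogen receptor, differed by 0.12 (SE 0.10) in females and −0.20 in males. The serotonin receptor Htr1b, the opioid receptor Oprd1 and the potassium channel Kcnj4 differed by 0.18 (SE 0.11), −0.13 (SE 0.09) and −0.19 (SE 0.11), and none had an unadjusted p under 0.05.

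Immediate early genes, which neurons switch on within minutes of activity, were higher for 13 of 17, with a median of 0.08 and 0.09 after quantile normalization, and 0 had an unadjusted p under 0.05. Nr4a3 stood at 7.94, 7.95, 8.99, 8.34 and 8.32 in controls and 8.67, 8.73, 8.76, 8.62, 8.67 and 8.93. The females labelled knockdown were close together and control replicate 3 lay above all of them. Its difference of 0.42 (SE 0.24, limma adjusted p = 0.879) ran from 0.33 to 0.59 without single mice. Egr2 differed by 0.23 (SE 0.16), again above the control mean in 6 of 6. For the list mean, the SD between mice was 0.21 in the controls and 0.07 in the females labelled knockdown. Later activity genes were higher for 13 of 20 with a median of 0.03, and Gadd45b differed by −0.16 (SE 0.10).

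**Figure D4:**
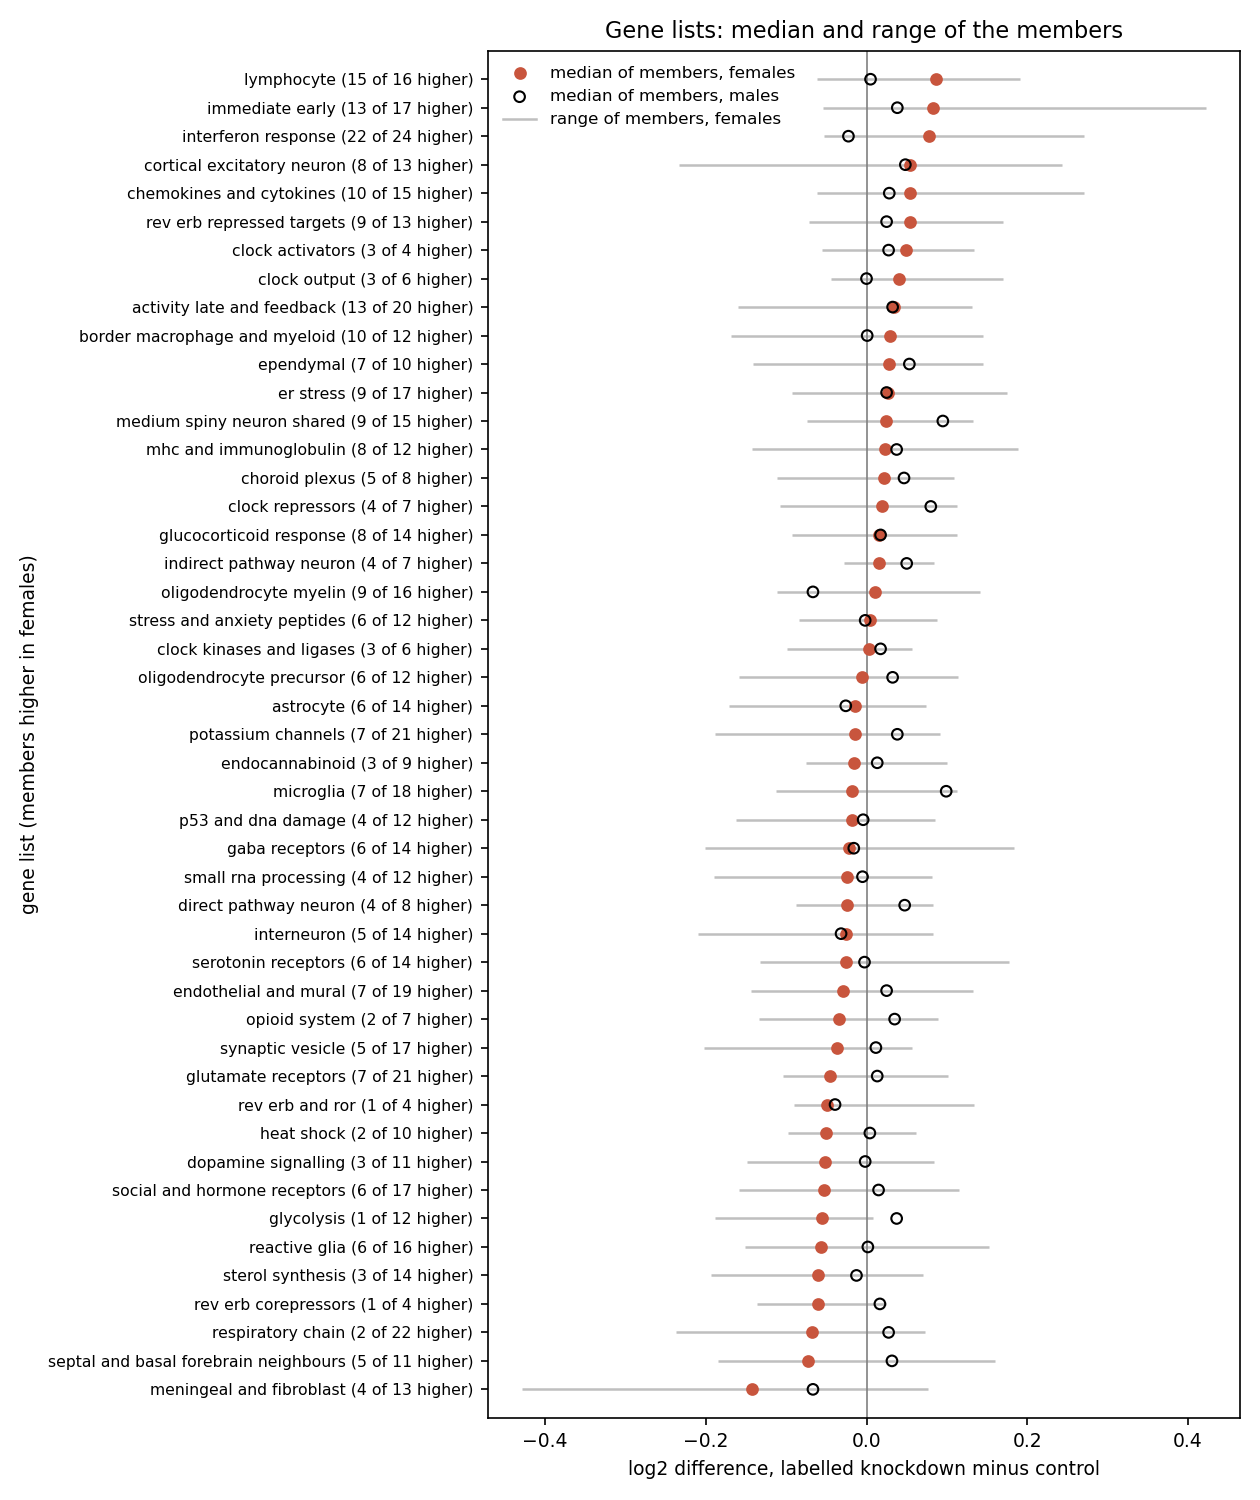
Median log2 difference of the members of every measured gene list except the sex check (x axis), by list (y axis, with the number of members higher in females): red points for females, open circles for males, grey lines for the range over the members in females. Respiratory chain and glycolysis genes have female medians of −0.07 and −0.05 and male medians of 0.03 and 0.04, and meningeal genes have the lowest female median, at −0.14.

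Glial and vascular genes differed by member. Of 18 microglial genes 7 were higher in females, with a median of −0.02 and Tmem119 and Trem2 at −0.09 and −0.11, and in males 16 of 18 were higher, with a median of 0.10. The sexes' difference in microglial genes had an unadjusted p under 0.05 for 3 of 18, against 5.18%. S100b, a calcium-binding protein of astrocytes, stood at 8.20, 8.46, 8.25, 8.38 and 8.38 against 8.35, 8.07, 8.21, 8.29, 8.05 and 8.01, a difference of −0.17 (SE 0.07, unadjusted p = 0.027, and above 0.05 without control replicate 2, 4 or 5 or knockdown replicate 2, 5 or 6), while the 14 astrocyte genes had a median of −0.01, or 0.002 after quantile normalization. Mfsd2a, a lipid transporter of brain endothelium, differed by 0.13 (SE 0.06, unadjusted p = 0.042), with control replicate 2 lowest at 8.75, and it stayed under 0.05 in 5 of the 11 fits without 1 mouse. The myelin genes Fa2h and Cldn11 differed by 0.14 and 0.10 and the list had a median of 0.01. Sterol synthesis genes were lower for 11 of 14, with a median of −0.06, 0 at an unadjusted p under 0.05, and Insig1 and Msmo1 at −0.19 (SE 0.10) and −0.15 (SE 0.09). Red blood cell genes had no probe set of their own here.

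Immune genes depended on single mice. Interferon response genes were higher for 22 of 24, with a median of 0.08 and 0 at an unadjusted p under 0.05, and after quantile normalization for 20 with a median of 0.05. Their list mean was 6.55 in knockdown replicate 4 and between 5.92 and 6.14 in the other females labelled knockdown. Without replicate 4 the count was 12 of 24 and the median 0.01. Irf9 and Psmb8, an interferon transcription factor and an immunoproteasome subunit, stood at 8.64 and 6.70 in that mouse and at or below 8.23 and 6.32 in the other 10. MHC and immunoglobulin genes were split between the groups. H2-Ab1, an MHC class II chain, stood at 7.33 in both control replicate 2 and knockdown replicate 4 and between 5.01 and 5.84 in the other 9 mice. Jchain, which joins secreted antibodies, stood at 7.19 in replicate 4 and at or below 5.33 elsewhere. The list had 8 of 12 higher and a median of 0.02, which became −0.06 without replicate 4 and 0.15 without control replicate 2.

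Lymphocyte genes were higher for 15 of 16, with a median of 0.09 and 0 at an unadjusted p under 0.05. The list is dim, with its median member in level class 2, of which 67.3% was higher, and after quantile normalization the count was 11 of 16 with a median of 0.06. Cd3d, of the T cell receptor, stood at 4.68 to 4.94 in controls and at 4.76 to 5.14 in the females labelled knockdown. Ccl5, a chemokine of T cells, stood at 5.91 to 6.23 and at 5.97 to 6.61, with replicate 4 highest. Their level classes are 2 and 3.

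**Figure D5:**
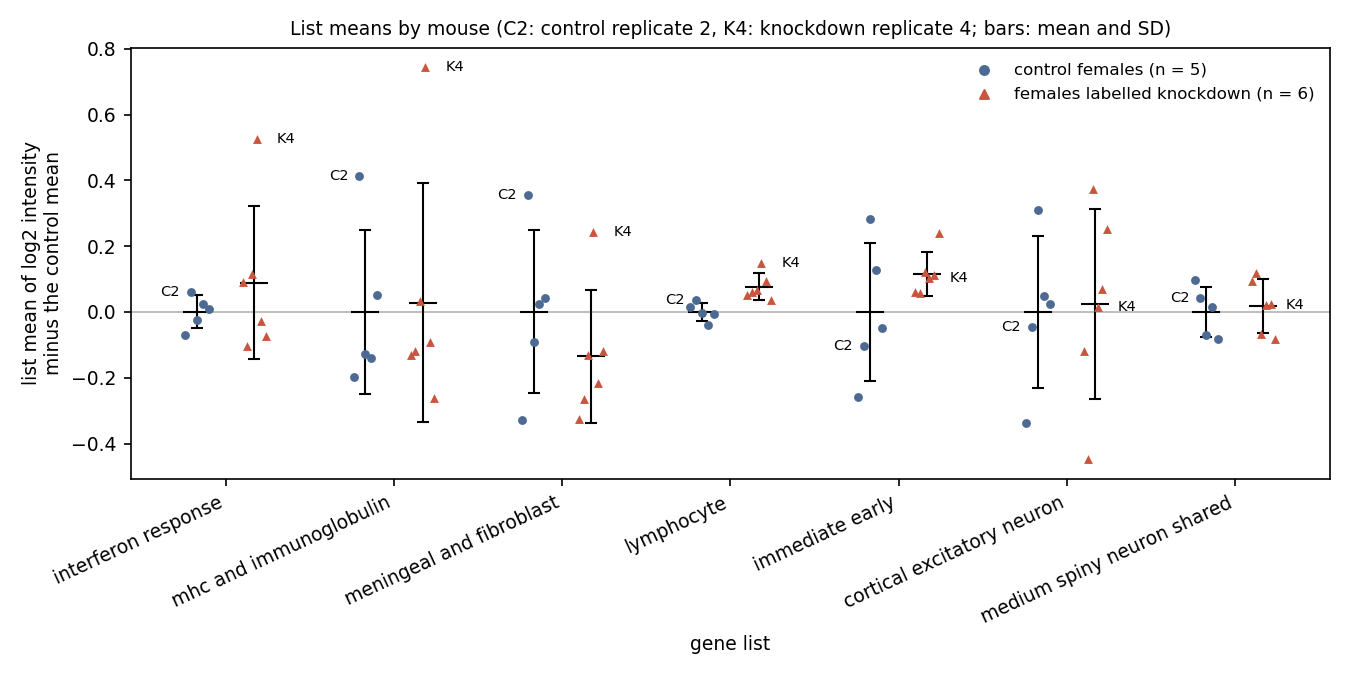
Mean log2 intensity of the members of 7 gene lists minus the control mean of the list (y axis), by list (x axis), with 1 point per mouse: blue circles for 5 control females, red triangles for 6 females labelled knockdown, bars for mean and SD. Knockdown replicate 4 (K4) is highest in the interferon and MHC lists, control replicate 2 (C2) is the highest control in the MHC and meningeal lists, and all 6 red points lie above the control mean in the lymphocyte and immediate early lists.

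Markers of tissue next to the punch varied between mice of both groups. Meningeal and fibroblast genes were higher for 4 of 13 with a median of −0.14, and −0.07 without control replicate 2. Ptgds, the prostaglandin D synthase of the meninges, stood at 10.26, 11.84, 10.68, 11.22 and 11.26 in controls and 10.44, 10.53, 10.65, 11.05, 10.30 and 10.77, a difference of −0.43 (SE 0.22) that ran from −0.63 to −0.23 without single mice. The mean of the meningeal list lay between 6.67 and 7.35 in controls and between 6.67 and 7.24 in the females labelled knockdown. Genes of cortical excitatory neurons varied widely between mice: Slc17a7, the vesicular glutamate transporter of cortex, ran from 9.40 to 11.05 in controls and from 8.92 to 11.13. Its difference was −0.11 (SE 0.89, which includes the spread of the males). Cck, Nmbr and Prdm8, which vary over a like range, differed by −0.03, 0.08 and 0.10. With the cortical list mean as a covariate, 0 probe sets passed the adjusted threshold. Slc17a8, a glutamate transporter of a few interneurons and of septal and raphe cells, stood at 7.25, 7.18, 7.00, 7.22 and 7.05 against 6.91, 6.99, 7.06, 6.98, 6.95 and 6.84, a difference of −0.18 (SE 0.06, unadjusted p = 0.0076, limma adjusted p = 0.839). As a gene of interneurons too, Slc17a8 need not mark tissue next to the punch, and the source of its signal was not tested.

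The female difference was set beside that of the 12 male arrays, which share no mouse with it. Both sexes use the same pooled spread for each gene, so their p-values are not independent. The test of the difference between the sexes called 0 of 41345 probe sets (0%) in limma, with a lowest adjusted p of 0.114 and 2358 (5.7%) at an unadjusted p under 0.05. Of the 1248 named genes with an unadjusted p under 0.05 in females, 563 had the same sign in males (45.1%), against 49.8% of all named genes. For the 607 lower genes the share was 40.4% and for the 641 higher genes 49.6%. Genes with the same sign and an unadjusted p under 0.05 in both sexes numbered 26, or 2.08% of the 1248. Among all named genes, whatever their p in females, 418 (1.89%) had the same sign and an unadjusted p under 0.05 in males. The following were chosen among these 26 after their values were seen. Dennd1c, a regulator of Rab35 traffic, differed by 0.29 (SE 0.09) in females and 0.31 (SE 0.08) in males. Sik2, a kinase that restrains CREB coactivators, was without overlap in females, at 10.06 to 10.14 in controls and 10.17 to 10.42, a difference of 0.17 (SE 0.05) beside 0.13 in males. Gtpbp3, an enzyme of mitochondrial tRNA modification, differed by 0.20 and 0.16, and Speer4d, of a multigene family, by −0.21 and −0.25.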

How the data were processed

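Gene expression was measured in 23 nucleus accumbens samples, of which the 11 female arrays are described. The authors deposited log2 intensities, 1 value per probe set and array, made with Transcriptome Analysis Console per the submitters' processing notes. No source used here gives its version, the normalization or the genome build. Per the labels' protocols, 150 ng of RNA was labelled for each array. Depth does not apply to arrays, and their number limits the precision. The medians differ between female and male arrays, so levels were not compared across the sexes.

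All 23 arrays entered 1 linear model with 4 group means in limma 3.58.1 (R 4.3.3, default empirical Bayes, 19 residual and 3.24 prior degrees of freedom). Tests were two-sided, with the Benjamini-Hochberg adjustment over all 41345 probe sets and a threshold of 0.05. SE and 95% intervals come from the model. Probe sets were named through the array's annotation table (1 symbol for 23521, several for 1814, 16010 unnamed here), and 23328 symbols were matched to the GRCm38.p6 gene table. Each gene is represented by its probe set with the highest mean. On simulated data for the female comparison (41345 probe sets), 74.6% of changes of 0.5 and 7.46% of changes of 0.25 were recovered, with 9 false calls. Noise was drawn independently for each probe set, without the shifts that real arrays share, so recovery in the real comparison can differ.

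There are 49 gene lists with 653 genes, and 590 of these could be measured by a named probe set. Members, lists and rules were chosen with earlier results of these data known. Named genes are Nr1d1, genes past the threshold, the 12 with the smallest p in each direction, the 10 largest differences at p under 0.01, the 15 with the largest spread within groups, all members of 5 clock and REV-ERB lists, and for other lists the 2 smallest p and members with p under 0.05. Alternatives were other normalizations, filters, array weights, a covariate, a replicate block and each mouse left out. Cyclic loess was added after seeing the data.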

Additional observations from a re-analysis of the deposited data

Results flagged for a closer look

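Of 342 groups tested (123 genes and 48 lists, controls and females labelled knockdown apart), 32 held a mouse far from the others of its group by Dixon's criterion, which chance gives in about 1 of 20 groups. The genes include some chosen for a large spread within groups, such as Jchain and Ogn, and list means hold some of the same genes. The count of 32 can therefore not be set against that share. Values below are log2 intensities, and no explanation was tested.

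Knockdown replicate 4 was flagged most often. It was highest in its group for Igkv5-43 (12.35), Jchain (7.19), Ighm (10.28), H2-Ab1 (7.33), Ogn (7.78), Mpzl2 (5.32), Cry1 (8.01) and Cry2 (8.94), and lowest for E2f1 (6.40). Its list means were highest for interferon response (6.55), chemokines and cytokines (6.49), MHC and immunoglobulin (7.60) and meningeal genes (7.24). The immunoglobulin and MHC genes belong to families of near-identical members, whose signals cannot be fully told apart.

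Control replicate 2 was highest in its group for H2-Ab1 (7.33), Ccl5 (6.23), Arntl2 (7.30) and the mean of border macrophage genes (5.39), and lowest for Clock (10.98), Mfsd2a (8.75) and Mir3095 (4.09). Control replicate 5 was highest for Ighm (9.64) and Kit (8.43) and lowest for Grin2b (11.19). Control replicate 4 was lowest for Nr1d1 (9.93). Control replicate 1 was lowest for Insig1 (9.68) and for the mean of synaptic vesicle genes (10.61).

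In the remaining cases knockdown replicate 1 was lowest for Ccdc13 (6.95) and highest for Ndufs4 (9.90), replicate 2 lowest for Cox5a (9.37), replicate 3 lowest for Tmem119 (6.83) and highest for Pramel33 (6.54), and replicate 6 highest for the mean of immediate early genes (7.995).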

How the results depend on the processing

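In every alternative but 1 the count past the adjusted threshold was 0: without knockdown replicate 1 it was 1, an unnamed probe set, so the range over single mice left out was 0 to 1. With the 11 female arrays alone that count was 0, with a lowest adjusted p of 0.325 in limma and 2730 probe sets at an unadjusted p under 0.05. At an unadjusted p under 0.05 stood 1356 probe sets when only bright ones were tested (20670) and 1351 when only named genes were (22180), against 2423, since fewer were tested. Over single mice left out this count ran from 1787 (without knockdown replicate 5) to 3019 (without replicate 4), and the Nr1d1 difference from −0.09 to 0. Array weights gave 1 unnamed probe set for the difference between the sexes (adjusted p = 0.027), against 0; the cause was not tested. Of 169 named genes 148 kept their sign in all alternatives in which they were tested. Many of them were named for a small p in these mice, which makes a kept sign likely in advance.

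Control and knockdown mice share replicate numbers in the labels, and deviations of same-numbered mice correlated between −0.08 and 0.18, with 2 of 5 pairs over 0.1, so the numbers were not taken as pairs. With the replicate block 2892 probe sets had an unadjusted p under 0.05, 0 passed the adjusted threshold and Nr1d1 differed by −0.05.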

Other observations

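Further gene groups held few members at an unadjusted p under 0.05 and 0 past the adjusted threshold. Genes of small RNA processing and export were lower for 8 of 12, with a median of −0.02, and 6 of 12 after quantile normalization. Ran, the GTPase that drives nuclear transport, stood at 7.96, 8.02, 7.87, 7.99 and 8.02 in controls and 7.78, 7.71, 7.89, 7.76, 7.59 and 7.96 in the females labelled knockdown, a difference of −0.19 (SE 0.07, unadjusted p = 0.011, limma adjusted p = 0.839). Tarbp2, a partner of Dicer, differed by −0.11 (SE 0.06). Sox11, a transcription factor of immature neurons held in the ependymal list, stood at 7.14 to 7.25 in controls and 7.16 to 7.52, a difference of 0.14 (SE 0.06, unadjusted p = 0.023, and above 0.05 without control replicate 2 or knockdown replicate 4 or 6), while 7 of 10 ependymal genes were higher with a median of 0.03, and 5 of 10 after quantile normalization.

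Heat shock genes were lower for 8 of 10, also after quantile normalization, with a median of −0.05, and synaptic vesicle genes for 12 of 17 and then 11 of 17. Genes of endoplasmic reticulum stress were higher for 9 of 17, with a median of 0.03, or for 8 with a median of −0.004 without control replicate 2. Potassium channel genes were lower for 14 of 21 as deposited and higher for 12 of 21 after quantile normalization, so their direction turned with the scaling.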
